A study of Mus musculus with 30 samples.

Results

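Nodal signalling genes were followed in mouse embryonic stem cells and embryoid bodies. The 8 genes are Nodal, Gdf3, Tdgf1, Acvr2b, Lefty1, Lefty2, Cer1 and Smad7, taken by symbol from a table of normalised counts with 20563 genes. All 8 were found, and all 8 passed the filter on low values (at least 10 in at least 2 libraries), which 15712 genes passed. The RNA came from 5 lines at 3 times, with 2 libraries in each of 15 groups and 30 in all. Day 0 cells were grown with the cytokine LIF on gelatin, and day 4 and day 8 samples were embryoid bodies, free-floating aggregates that differentiate without LIF. Of the lines, Pali wild type was followed beside its Pali1 knockout (Pali1-/-) and a double knockout of Pali1 and Pali2 (Pali1-/- Pali2-/-). C129 wild type was followed beside an Aebp2 gene trap line (Aebp2gt/gt). PALI1, PALI2 and AEBP2 are partners of Polycomb repressive complex 2, an enzyme that marks silent developmental genes by methylating histone H3. The labels name no induction step for any mutant. The labels call the libraries biological duplicates and do not say whether several clones of a genotype were used, so the spread measured is that between cultures.

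Nodal is a secreted ligand of the TGF-beta family that patterns the early embryo. It binds type I and type II activin receptors together with a co-receptor of the EGF-CFC family, and the receptors phosphorylate Smad2 and Smad3, which enter the nucleus with Smad4. The pathway switches on its own ligand and its own inhibitors, the Lefty proteins, and high signalling directs cells towards endoderm and anterior mesoderm. In undifferentiated embryonic stem cells Nodal, Lefty and Tdgf1 transcripts are abundant.

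By role, Nodal and Gdf3 are ligands, Tdgf1 (Cripto) is the co-receptor and Acvr2b a type II receptor. Lefty1, Lefty2 and Cer1 are secreted inhibitors, and Smad7 is an inhibitor inside the cell. On GRCm38, Nodal is at chromosome 10, 61417972 to 61425338 (plus strand), and Gdf3 at chromosome 6, 122605403 to 122610087 (minus). Tdgf1 (110939603 to 110946158, minus) and Acvr2b (119402118 to 119434995, plus) both lie on chromosome 9. Cer1 is at chromosome 4, 82881751 to 82885148 (minus).

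Lefty2 (chromosome 1, 180893108 to 180899103) and Lefty1 (180935022 to 180938400) stand 35.918 kb apart on the plus strand. Their coding sequences, 1104 bases each, were identical at 1014 positions (91.8%), with an identical run of 140 bases, so a short read can fall where the genes cannot be told apart. The 60 coding bases with the most differences lie near the start codon, at coding bases 34 to 93. They are shown because the split between the Lefty genes rests on such stretches, with the 18 bases that differ in capitals.
Lefty1, chr1:180935143-180935202: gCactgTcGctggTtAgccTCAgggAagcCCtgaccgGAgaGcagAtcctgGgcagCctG
Lefty2, chr1:180893217-180893276: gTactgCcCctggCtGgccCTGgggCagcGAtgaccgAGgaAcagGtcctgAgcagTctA
All 31-base words were taken from the transcript of each gene with the longest coding sequence. Of these words, 25.03% of those of Lefty1 occur in Lefty2 and 16.3% of those of Lefty2 in Lefty1. For Tdgf1, 17.4% occur in the pseudogene Tdgf1-ps1, and for Acvr2b and Smad7 none occur in another gene. Values of Lefty1 and Lefty2 are therefore uncertain in their split, and results for them were also computed on the sum of both.

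The normalised counts of a library summed to between 15470082 and 18336791. Across genes, which are not independent replicates, Pearson r between duplicates was at least 0.948 on log2 values. Aebp2 lay between 17.1 and 66.4 in the 6 gene trap libraries and between 1232 and 2784 in the 24 others. Lcor and Lcorl, the loci that encode PALI1 and PALI2, overlapped between the Pali mutants and Pali wild type, and the summed value of a locus does not tell its PALI transcripts from its others. Afp, a gene of yolk sac endoderm, stood at 1947 in replicate 2 of Pali wild type at day 8 and at 8.03 in replicate 1. The sum of 14 visceral endoderm and yolk sac markers was 13785 and 1120 in these libraries. For 2 libraries, replicate 1 of the double knockout at days 0 and 4, the description names the other culture state than the title, and titles were followed. In bulk RNA, fewer cells of a type and less RNA per cell cannot be told apart.

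**Figure D1:**
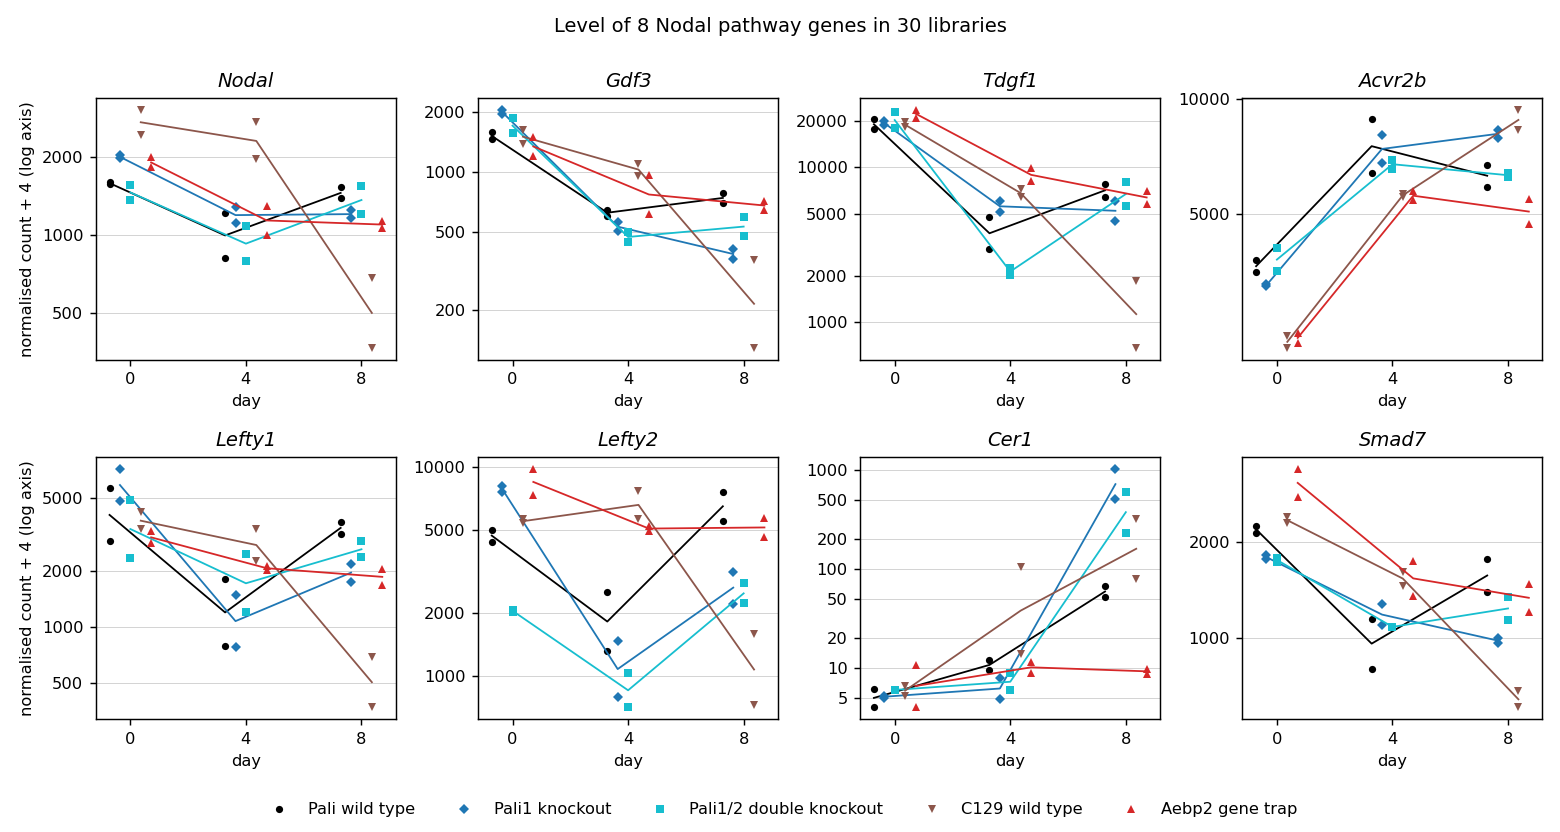
Level of each gene (vertical axis, normalised count + 4, log scale) at day 0, 4 and 8 (horizontal axis) in 5 lines. Each point is 1 of 30 libraries, points of a line are shifted sideways for clarity, and lines join the means of the log values. C129 wild type at day 8 has the lowest mean of all 15 groups for 5 of the 8 genes, and Cer1 reaches 10 or more in 9 libraries.

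Most of the 8 genes fell by day 4 in Pali wild type and from day 4 to day 8 in C129 wild type. In Pali wild type only 3 were still called lower at day 8 than at day 0. Changes were tested with limma on log2(value + 4) over all 30 libraries, with Benjamini-Hochberg adjustment over 15712 genes and a threshold of 0.05. All adjusted p-values are from this limma test, and log2 changes on this scale understate the change of low genes. In Pali wild type, 6 of 8 genes changed from day 0 to day 4, where 27.3% of all genes tested did. Of these, 5 fell (12.7% of all genes did) and Acvr2b rose (14.7%), and the median of the 8 was -1.24 against 0.02 for all genes. From day 4 to day 8, 2 of 8 changed, Lefty2 and Smad7, both upward, beside 2.81% of all genes. In C129 wild type, 4 of 8 changed by day 4 (background 29.1%), and all 8 changed from day 4 to day 8 (background 30.8%), with a median of -2.22. From day 0 to day 8, all 8 changed in C129 beside 45.8% of all genes, 6 falling (22.4% of all genes) and 2 rising (23.4%). In Pali wild type 5 of 8 changed over this span beside 25.8%, 3 falling (11.7%) and 2 rising (14.0%).

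In the mutants, too, most of the 8 genes changed as the cells differentiated. In the Pali1 knockout 7 of 8 genes changed by day 4 (background 30.5%), 2 from day 4 to day 8 (14.5%) and all 8 from day 0 to day 8 (42.1%). The counts were 5 (27.5%), 3 (7.95%) and 5 (30.9%) in the double knockout. In the Aebp2 gene trap 4 genes changed by day 4 (30.6%) and 5 from day 0 to day 8 (31.3%). From day 4 to day 8 the limma test called 0 of 8 in the trap, beside 8.00% of all genes, and 0 of 8 were at an unadjusted p under 0.05, beside 22.1%. The median change was -0.15.

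Against their wild types, the calls in these genes came at day 8, apart from Nodal in the gene trap at day 4. In the Pali1 knockout 4 of 8 genes were called at day 8, 1 higher and 3 lower, beside 13.6% of all genes tested (7.07% higher and 6.52% lower). The double knockout had 2 of 8 called at day 8, 1 higher and 1 lower, beside 7.21% (4.13% and 3.08%). In the Aebp2 gene trap all 8 were called at day 8, 6 higher and 2 lower, beside 20.1% (9.59% and 10.6%). The median of the 8 genes at day 8 was -0.56, -0.22 and 1.39 in these comparisons, against 0.04, 0.03 and -0.01 over all genes. At day 0 limma called 0 of 8 in each mutant, beside 4.79%, 3.67% and 13.0% of all genes. At an unadjusted p under 0.05 were 0, 1 and 1 of 8, beside 17.2%, 14.8% and 25.5% of all genes. At day 4 it called 0 of 8 in either Pali mutant (background 2.67% and 2.07%) and 1 of 8 in the gene trap (background 9.01%). In the Pali mutants 1 and 2 of 8 were at an unadjusted p under 0.05, beside 14.2% and 14.5% of all genes. Both Pali mutants were compared with the same Pali wild type libraries, and setting the gene trap against C129 rests on the order in which the design text lists the lines.

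**Figure D2:**
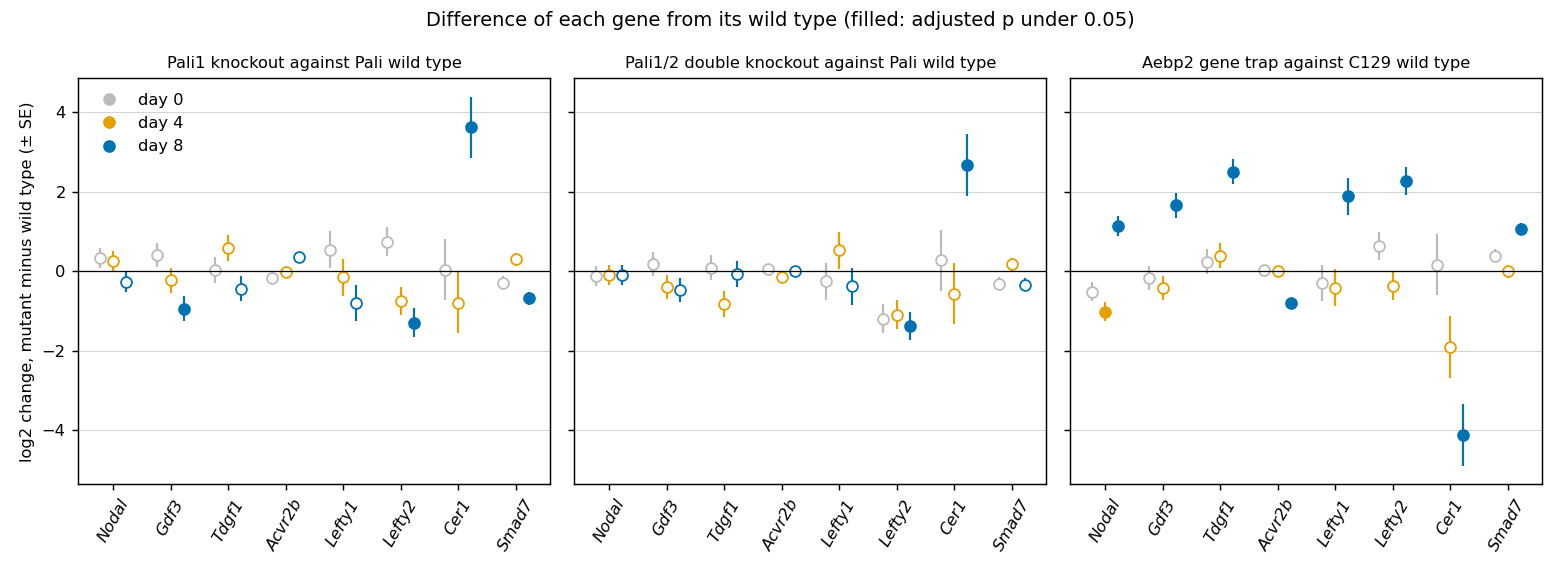
Log2 change of each gene, mutant minus its wild type (vertical axis, bars are SE), at day 0, 4 and 8, for the Pali1 knockout, the Pali1/2 double knockout and the Aebp2 gene trap. Filled points passed the adjusted threshold of 0.05. At day 8, Cer1 was higher in both Pali mutants (3.61 and 2.67) and lower in the gene trap (-4.12), while Lefty2 went the other way.

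Nodal itself was 1561 and 1593 at day 0 in Pali wild type, 814 and 1205 at day 4 and 1378 and 1517 at day 8. No step of this course was called (day 4 against day 0, -0.67, SE 0.247, adjusted p = 0.0530). C129 wild type held more Nodal at first, with 3028 and 2418 at day 0 and 2701 and 1947 at day 4, and then 677 and 364 at day 8. The libraries of C129 stood above all Pali wild type libraries at day 0 and day 4 and below them at day 8.

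The fall of Nodal in C129 from day 4 to day 8 was 2.20 on the log2 scale (SE 0.247, adjusted p = 5.15e-06). In the gene trap, Nodal was 1813 and 1979.9 at day 0, 996 and 1285 at day 4, and 1123 and 1060.2 at day 8. It was thus lower than in C129 at day 4, by 1.02 (adjusted p = 0.0153), and higher at day 8, by 1.13 (SE 0.247, adjusted p = 0.00307), with no overlap of libraries at either time.

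The day 4 call of Nodal was lost without C129 replicate 1 (-0.78, adjusted p = 0.181) or gene trap replicate 1 (adjusted p = 0.144) of that day, and in a fit of these lines alone (adjusted p = 0.0999). The day 8 call was lost without C129 day 8 replicate 2 (0.69, adjusted p = 0.0798). In the Pali1 knockout Nodal was 2017 and 1965 at day 0, 1105 and 1274 at day 4 and 1239.6 and 1156 at day 8. The double knockout held 1552 and 1358, then 790.1 and 1073, then 1195 and 1541. Neither Pali mutant was called against Pali wild type at any day, with changes between -0.27 and 0.34. The libraries still did not overlap at day 0, with the Pali1 knockout above wild type and the double knockout below it. At day 8 the Pali1 knockout stood below both wild type libraries. Over the 15 groups the order of means ran from 2723 in C129 at day 0 to 521 in C129 at day 8. Only 3 of the 14 neighbouring pairs of groups in that order did not overlap, and C129 at day 8 stood apart at the bottom.

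Gdf3, a ligand that signals through the same co-receptor, fell in every line between day 0 and day 8. In Pali wild type this fall of 1.04 (adjusted p = 0.0179) was lost without any 1 of its 4 libraries (adjusted p from 0.0538 to 0.0968). The gene trap's fall of 0.99 (adjusted p = 0.0189) was lost without day 0 replicate 2 (adjusted p = 0.137) or either day 8 library (adjusted p = 0.0524 and 0.103). In Pali wild type its values were 1459 and 1581 at day 0, 599 and 639.97 at day 4 and 777 and 698 at day 8, a fall of 1.29 by day 4 (SE 0.305, adjusted p = 0.00394). In C129 they were 1386 and 1635, then 1099.7 and 956, then 356 and 126. The day 8 duplicates of C129 differed 2.83-fold, the widest gap for this gene.

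At day 8 Gdf3 was 402 and 362 in the Pali1 knockout, below both wild type libraries. This difference of -0.94 from wild type (SE 0.305, adjusted p = 0.0488) stood at the edge of the threshold. The call was lost in 9 of 14 alternatives, over which the change ran from -1.02 to -0.86. In the double knockout it was 587 and 472, also below both wild type libraries, and was not called (-0.48, adjusted p = 0.401).

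The gene trap held 709.8 and 639 at day 8, above both C129 libraries by 1.65 (SE 0.305, adjusted p = 8.70e-04). This call was kept in every alternative, with 0.91 (adjusted p = 0.00996) without C129 day 8 replicate 2. At day 0 the trap held 1197 and 1508, and at day 4 612 and 959.9, overlapping C129 at both times. All 5 day 0 groups stood above all later groups in the order of means, between 1352 and 2007.

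Tdgf1, a co-receptor through which Nodal binds its receptors, had the widest range of the 7 genes detected in all libraries, with means from 22265 in the gene trap at day 0 to 1267 in C129 at day 8, a 17.6-fold span. In Pali wild type it was 17615 and 20409 at day 0, 2949 and 4762 at day 4 and 6455 and 7810 at day 8. It fell by 2.34 by day 4 (SE 0.323, adjusted p = 3.72e-05), and the later difference was not called (0.92, adjusted p = 0.154).

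In C129, Tdgf1 was 19511 and 18181, then 7255 and 6397, then 1854 and 681. It fell at both steps, by 1.47 (adjusted p = 0.00221) and by 2.60 (adjusted p = 1.50e-05). In the gene trap it was 20940 and 23589, then 9837 and 8119.8, then 7039.9 and 5791. At day 8 both trap libraries stood above both C129 libraries, and the difference was 2.50 (SE 0.323, adjusted p = 3.95e-05), or 5.66-fold.

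In Tdgf1 the Pali mutants were not called against wild type at any day. At day 8 both Pali1 knockout libraries stood below both of wild type (-0.44, adjusted p = 0.424). At day 4 Tdgf1 was 5152 and 6085 in the Pali1 knockout and 2242 and 2006 in the double knockout, with wild type between them. The difference between the 2 mutants was 1.40 lower in the double knockout (SE 0.323, adjusted p = 0.0407, background 1.38% of all genes), and it was lost without any 1 of the 4 libraries (adjusted p from 0.112 to 0.254). It was also lost without both libraries whose descriptions go against their titles (-1.48, adjusted p = 0.127). In the double knockout Tdgf1 then rose to 5621 and 8036 at day 8, by 1.66 from day 4 (adjusted p = 0.00352), a call lost without day 8 replicate 2 (1.40, adjusted p = 0.0527).

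Acvr2b, a type II receptor shared by Nodal, Gdf3 and the activins, rose by day 4 in all 5 lines, by 0.83 to 1.28 (SE 0.124, adjusted p from 7.87e-07 to 8.28e-05). In Pali wild type it was 3512 and 3774 at day 0, 8868 and 6382 at day 4 and 5888 and 6722 at day 8. In C129 it was 2223 and 2386, then 5544 and 5638, then 9385 and 8282, and the second step was a rise of 0.66 (adjusted p = 6.14e-04). No day 0 library reached the lowest library of day 4 or day 8.

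In the gene trap Acvr2b was 2432 and 2289 at day 0, 5741 and 5417 at day 4, and 4694 and 5467 at day 8. At day 8 it was thus 1.74-fold lower than in C129 (-0.80, SE 0.124, adjusted p = 1.92e-04), kept in every alternative. In the Pali1 knockout at day 8, 7923 and 8291 stood above both wild type libraries, but the difference was not called (0.37, adjusted p = 0.0600). With the filter set at a mean of 50 its adjusted p was 0.0496. The double knockout, with 6233 and 6391, lay between the wild type libraries (0.00, SE 0.124).

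The secreted inhibitors Lefty1 and Lefty2 bind Nodal and its co-receptor. Lefty1 had its highest mean at day 0 in each of the 5 lines. Lefty1 in Pali wild type was 2897 and 5601 at day 0, 793 and 1810.1 at day 4 and 3699 and 3178 at day 8. It fell by 1.75 by day 4 (SE 0.463, adjusted p = 0.00900), a call lost without day 0 replicate 2 (-1.27, adjusted p = 0.119) or day 4 replicate 1 (-1.15, adjusted p = 0.148). The difference from day 4 to day 8 was not called (1.51, adjusted p = 0.0983). The duplicates of Lefty1 differed up to 2.28-fold, at day 4 in Pali wild type, and only 2 of 14 neighbouring pairs of groups did not overlap.

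In C129, Lefty1 was 3369 and 4173, then 3371 and 2279, then 687 and 367, a fall of 2.46 from day 4 to day 8 (SE 0.463, adjusted p = 6.34e-04). In the gene trap it was 2831 and 3284, then 2136 and 2019.6, then 2063 and 1687, with no step called. At day 8 both trap libraries stood above both C129 libraries, by 1.89 (SE 0.463, adjusted p = 0.00716). This call was lost without C129 day 8 replicate 2 (1.44, adjusted p = 0.105) or gene trap day 8 replicate 1 (adjusted p = 0.0696). At day 8 the Pali1 knockout held 2199.8 and 1758 and the double knockout 2374 and 2909 of Lefty1, both below the wild type libraries, and neither difference was called (-0.80 and -0.38, adjusted p = 0.291 and 0.710).

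Lefty2 was lower at day 8 in both Pali mutants than in their wild type. Pali wild type held 4999 and 4379 at day 0, 1312 and 2501 at day 4, and 7589 and 5505 at day 8. It fell by 1.37 (SE 0.357, adjusted p = 0.00802) and then rose by 1.83 (adjusted p = 0.00974). Both steps were lost without day 4 replicate 1 (-0.90 and 1.37, adjusted p = 0.138 and 0.103), the first also without day 0 replicate 1 (adjusted p = 0.0597) and the second without day 8 replicate 1 (adjusted p = 0.164). At day 8 the Pali1 knockout held 3140.4 and 2209.7 and the double knockout 2764 and 2212, all below the lower wild type library.

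Against wild type at day 8, Lefty2 was thus lower by 1.29 in the Pali1 knockout (SE 0.357, adjusted p = 0.0214), or 2.45-fold. In the double knockout it was lower by 1.38 (SE 0.357, adjusted p = 0.0267), or 2.61-fold. The call in the Pali1 knockout was lost without wild type replicate 1 of day 8 (-1.06, adjusted p = 0.152) or without the mutant's replicate 2 (-1.04, adjusted p = 0.194). The call in the double knockout was lost without any 1 of the 4 day 8 libraries (adjusted p from 0.0700 to 0.158). On the sum of both Lefty genes neither was called (-1.10, adjusted p = 0.0715 and -0.95, adjusted p = 0.166).

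At day 0 the Pali1 knockout held 8100.3 and 7564 of Lefty2, the most in any Pali line, and the double knockout 2022 and 2059, the least of any line. Against wild type neither was called (0.74 and -1.20, adjusted p = 0.299 and 0.0785). Against each other, the double knockout was lower by 1.94 (SE 0.357, adjusted p = 0.00713), beside 3.07% of all genes called. That call was lost on the sum of both Lefty genes (-1.32, adjusted p = 0.0798), without Pali1 knockout replicate 1 (adjusted p = 0.0794) or without double knockout replicate 2 (adjusted p = 0.0623). It was the only gene of the 8 called between the 2 mutants at day 0. At day 4 only Tdgf1 was called, and at day 8 limma called 0 of 8, beside 1.37% of all genes, with 1 of 8 at an unadjusted p under 0.05, beside 12.2%.

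In C129, Lefty2 was 5376 and 5594, then 7685 and 5607, then 1576 and 721, a fall of 2.62 from day 4 to day 8 (SE 0.357, adjusted p = 3.40e-05). In the gene trap it was 7346 and 9735, then 4897 and 5220, then 5694 and 4600.4, and no step of its course was called. At day 8 the trap was higher by 2.26 (SE 0.357, adjusted p = 2.33e-04), or 4.79-fold, with no overlap and in every alternative.

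The share of Lefty2 in the sum of both Lefty genes ran between 69.6% and 74.8% in the 6 gene trap libraries and between 57.3% and 71.1% in C129. It was 43.9% to 67.2% in Pali wild type, 49.4% to 62.8% in the Pali1 knockout and 29.2% to 53.8% in the double knockout. At day 8 it was 67.2% and 63.4% in Pali wild type and 53.8% and 43.2% in the double knockout. Duplicates could lie far apart, with 63.3% and 43.9% in Pali wild type at day 0. No interval is given for these shares, since the values are normalised and whole reads were not recovered.

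Cer1, a secreted antagonist of Nodal, BMP and Wnt made by anterior endoderm, was near the floor except late in differentiation. It reached 10 in 9 of 30 libraries, 8 of them at day 8, and was listed at 0 in 2. Pali wild type held 2.19 and 0 at day 0, 8.16 and 5.49 at day 4, and 64.2 and 47.8 at day 8, a rise of 3.58 from day 0 (SE 0.769, adjusted p = 0.00222). At day 8 the Pali1 knockout held 1025 and 508 and the double knockout 231 and 604, all above both wild type libraries.

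Cer1 was thus higher at day 8 by 3.61 in the Pali1 knockout (SE 0.769, adjusted p = 0.00418), or 12.2-fold, in every alternative. In the double knockout it was higher by 2.67 (SE 0.769, adjusted p = 0.0436), or 6.36-fold. This second call was lost in 8 of 14 alternatives, among them each of the 4 day 8 libraries left out, with adjusted p up to 0.295 and a change of 1.98 without double knockout replicate 2.

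C129 held 1.26 and 2.61 of Cer1 at day 0, 9.85 and 100.6 at day 4, and 320 and 75.9 at day 8. The gene trap held 6.79 and 0, then 7.62 and 4.87, then 4.79 and 5.73, and so stayed below 10 at every time. At day 8 it was lower by 4.12 (SE 0.769, adjusted p = 9.07e-04), or 17.4-fold on the scale of value + 4, in every alternative. With the gene trap near the floor, the size of this change depends on the pseudocount. At day 4 the difference was not called (-1.91, adjusted p = 0.139), while without C129 replicate 1 it was -3.37 (adjusted p = 0.0249).

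Smad7 (chromosome 18, 75367529 to 75395935, plus strand on GRCm38) binds activated type I receptors and blocks Smad2 and Smad3. It fell by day 4 in all 5 lines, by 0.60 to 1.19 (SE 0.163, adjusted p from 3.01e-05 to 0.00905). The fall was lost in the Pali1 knockout without day 0 replicate 2 or day 4 replicate 1 (adjusted p = 0.0529 and 0.0973). In C129 it was lost without day 0 or day 4 replicate 2 (adjusted p = 0.0523 and 0.0727). In the double knockout it was lost without both libraries whose descriptions go against their titles (adjusted p = 0.0682). Pali wild type held 2144 and 2244 at day 0, 799 and 1147 at day 4, and 1395 and 1767 at day 8. Its rise of 0.71 from day 4 to day 8 (adjusted p = 0.0234) was lost without day 4 replicate 1 (0.45, adjusted p = 0.227) or either day 8 library (adjusted p = 0.0575 and 0.148). C129 held 2294 and 2394, then 1616 and 1459, then 677 and 603, with a further fall of 1.26 from day 4 (adjusted p = 1.93e-05). The gene trap held 2779.9 and 3391 at day 0, 1356 and 1743 at day 4, and 1208 and 1476 at day 8.

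At day 8 Smad7 was higher in the trap than in C129 by 1.06 (SE 0.163, adjusted p = 1.77e-04), or 2.08-fold, in every alternative. In the Pali1 knockout it was 961 and 998 at day 8, below both wild type libraries by 0.68 (SE 0.163, adjusted p = 0.00940). That call was lost without wild type replicate 2 (-0.51, adjusted p = 0.128) or without either mutant library of day 8 (adjusted p = 0.0572 and 0.0523). The double knockout's 1135 and 1346 also stood below both wild type libraries, and the difference was not called (-0.34, adjusted p = 0.237).

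The courses of the lines were then compared directly, as the change over time in the mutant less that in its wild type. Between the gene trap and C129, 7 of 8 genes differed in their change from day 4 to day 8 (background 13.7%) and 7 of 8 from day 0 to day 8 (15.3%). Tdgf1 differed by 2.26 over the whole course (SE 0.457, adjusted p = 0.00306) and Lefty2 by 2.64 over the second step (SE 0.504, adjusted p = 0.00232). For day 0 to day 4 limma called 0 of 8 (background 1.03%), with 0 of 8 at an unadjusted p under 0.05 (13.8% of all genes). From day 0 to day 4 limma called 0 of 8 in the Pali1 knockout (background 0.426%), with 2 of 8 at an unadjusted p under 0.05 (10.3% of all genes). The later courses of Smad7 (day 4 to day 8, -0.98, adjusted p = 0.0498, background 0.999%) and Lefty2 (day 0 to day 8, -2.04, adjusted p = 0.0255, background 5.73%) differed from wild type there. The Smad7 call was lost without wild type day 4 replicate 1, wild type day 8 replicate 2 or any 1 Pali1 knockout library of day 4 or day 8, with adjusted p up to 0.185. The Lefty2 call was lost without wild type day 0 replicate 2, wild type day 8 replicate 1, either Pali1 knockout library of day 0 or its day 8 replicate 2, with adjusted p up to 0.115. In the double knockout limma called 0 of 8 for each span (background 0.477%, 0.0636% and 1.12%). At an unadjusted p under 0.05 were 1, 2 and 1 of 8, beside 10.2%, 6.84% and 13.7% of all genes.

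The wild type lines also differed from each other in these genes. C129 and Pali wild type differed in 2, 4 and 7 of the 8 genes at day 0, 4 and 8, beside 21.1%, 15.9% and 17.3% of all genes. At day 8, C129 was lower in Nodal (-1.53), Gdf3 (-1.78), Tdgf1 (-2.66), Lefty1 (-2.76), Lefty2 (-2.60) and Smad7 (-1.29) and higher in Acvr2b (0.49). Adjusted p for these ran from 2.45e-05 (Tdgf1) to 0.0107 (Acvr2b). The call of Acvr2b was lost without replicate 1 of Pali wild type or of C129 (adjusted p = 0.116 and 0.0883), and Gdf3 was -1.04 without C129 replicate 2. Cer1 was not called (1.44, adjusted p = 0.230). The gene trap at day 8 overlapped Pali wild type, not C129, in Tdgf1, with 7039.9 and 5791 against 6455 and 7810. It also overlapped Pali wild type in Gdf3, Lefty2 and Smad7, and stood below both of its libraries in Nodal, Acvr2b, Lefty1 and Cer1. Genetic background and culture history of the 2 wild type lines cannot be told apart. The day 8 duplicates of C129 were also the widest apart of any group in Nodal (1.86-fold), Gdf3 (2.83-fold), Tdgf1 (2.72-fold) and Lefty2 (2.19-fold), with replicate 2 the lower each time.

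Other genes of the pathway were followed in a list of 42 (ligands and their proteases, receptors, Smads, inhibitors and targets), of which 41 were tested. At day 8, the Pali1 knockout had 15 higher and 5 lower, the double knockout 10 higher and 0 lower, and the gene trap 4 higher and 12 lower. Over all genes the shares were 7.07% and 6.52%, 4.13% and 3.08%, and 9.59% and 10.6%. The medians were 0.22, 0.21 and -0.29. At day 0 and day 4 the gene trap had 4 and 6 of the 41 called, beside 13.0% and 9.01% of all genes. The Pali1 knockout had 2 and 2, beside 4.79% and 2.67%, and the double knockout 1 and 2, beside 3.67% and 2.07%.

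The targets in the list are transcription factors and Fgf8, which Nodal signalling switches on in the gastrulating embryo. At day 8, 7 of 9 targets were higher than in wild type in the Pali1 knockout (median 2.77) and 7 in the double knockout (median 3.03). In the gene trap 5 were lower than in C129 (median -1.52). Over all genes 7.07% and 4.13% were higher in the Pali mutants, and 10.6% were lower in the gene trap. Foxa2, a factor of endoderm and node, was 49.5 and 57.1 in Pali wild type at day 8, 748 and 593 in the Pali1 knockout and 334 and 784 in the double knockout. It was higher by 3.55 in the Pali1 knockout (SE 0.769, adjusted p = 0.00467) and by 3.17 in the double knockout (adjusted p = 0.0192). Alternatives were run for the 8 genes alone, so calls in the list of 42 were not rechecked. Compared as courses with wild type, limma called 0 of 9 targets in the double knockout for each span (background 0.477%, 0.0636% and 1.12%). At an unadjusted p under 0.05 were 1, 7 and 7 of 9, beside 10.2%, 6.84% and 13.7% of all genes.

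Sox17, a factor of definitive and visceral endoderm, was 6.95 and 45.4 in Pali wild type, 349.8 and 217 in the Pali1 knockout (3.59, adjusted p = 0.0120) and 196 and 386 in the double knockout (3.59, adjusted p = 0.0226). T (brachyury), the factor of the primitive streak, was 0 and 5.56 in wild type, 257 and 177 in the Pali1 knockout and 131 and 394 in the double knockout. Its change of 5.23 in the double knockout (SE 1.12, adjusted p = 0.00996) depends on the pseudocount, since wild type was near 0. Lhx1, a factor of the node and anterior mesendoderm, was higher by 3.10 there (SE 0.601, adjusted p = 0.00531).

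In the gene trap at day 8, Foxa2 was 12.05 and 13.2 against 266 and 650.3 in C129 (-4.66, adjusted p = 3.25e-04). Sox17 was 3.98 and 1.93 against 248 and 247 (-5.19, adjusted p = 4.83e-04). Lhx1 was lower by 3.12 (adjusted p = 0.00117), and Pcsk5, a protease of the convertase family, by 3.10 (adjusted p = 0.00279). For Foxa2 and Sox17 no library of the trap reached any of C129.

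**Figure D3:**
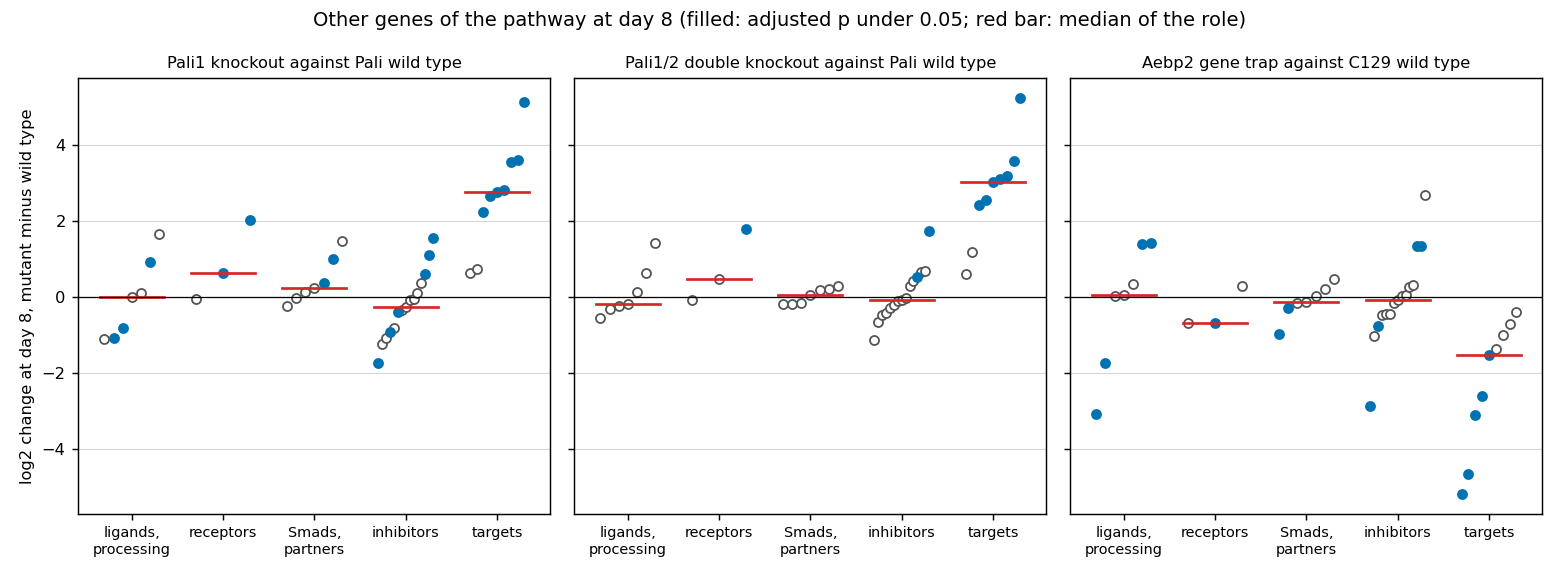
Log2 change at day 8, mutant minus wild type (vertical axis), of each tested gene of the pathway list, grouped by role (horizontal axis), in the Pali1 knockout, the double knockout and the Aebp2 gene trap. Each point is a gene, filled where the adjusted threshold of 0.05 was passed, and red bars are medians of a role. Target genes stand high in both Pali mutants (medians 2.77 and 3.03) and low in the gene trap (-1.52).

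Calls in the other roles are read against 13.6%, 7.21% and 20.1% of all genes called at day 8 in the Pali1 knockout, the double knockout and the gene trap. Of 15 inhibitors and feedback genes, 3 were higher and 3 lower than in wild type in the Pali1 knockout. In the double knockout 2 were higher, and in the gene trap 2 were higher and 2 lower. Of 7 Smads and partners, 2 were higher in the Pali1 knockout, 0 were called in the double knockout and 2 were lower in the gene trap. Of 3 receptors and co-receptors, 2, 1 and 0 were higher, and 1 was lower in the gene trap. Of 7 ligands and proteases, 1 was higher and 2 were lower in the Pali1 knockout. In the double knockout 0 of these were called, and in the gene trap 2 were higher and 2 lower. Over the course of differentiation the widest fall was of Inhbb, an activin subunit, in Pali wild type, where day 0 values of 1362 and 880.3 gave way to 3.63 and 2.20 by day 4 (-7.32, adjusted p = 2.00e-09).

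Some markers of cell types moved with these genes. The summed level of 10 pluripotency markers, all detected at 10 or more in every library, was 58513 to 91429 at day 0. At day 8 it was 40871 to 46864 in Pali wild type, 22658 to 27817 in the Pali1 knockout, 29355 to 30035 in the double knockout, 14296 to 20789 in C129 and 43565 to 45496 in the gene trap. At day 8 C129 was thus lowest both in these markers and in Nodal, Gdf3, Tdgf1, Lefty1, Lefty2 and Smad7. Their part in these results was not tested.

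The summed level of 7 markers of streak and mesoderm at day 8 was 447.7 to 542 in Pali wild type, 1169.5 to 1591 in the Pali1 knockout and 1131 to 2495 in the double knockout. It was 282 to 719.7 in C129 and 213 to 226 in the gene trap. The 14 visceral endoderm and yolk sac markers summed to 1819.8 to 2175 in the Pali1 knockout, 2264 to 3298 in the double knockout, 3787 to 5429 in C129 and 2184 to 3082 in the gene trap, within the span of the Pali wild type duplicates in the Pali lines. Foxa2 and Sox17 belong to this list and to the targets above. T, Mixl1, Eomes, Gsc and Fgf8 of the streak and mesoderm list are also among those targets. The streak and mesoderm sums are therefore not separate from the target result. At day 8 the sum of 4 neuroectoderm markers was 3539 to 4234 in Pali wild type, 8507 to 9598 in the Pali1 knockout, 7699 to 8603 in the double knockout, 6973 to 7437 in C129 and 3771 to 5209 in the gene trap. At day 8 it was thus high in the 3 lines with the most Cer1. At day 4 this sum was already 7586 to 7902 in the Pali1 knockout, with Cer1 at 0.88 to 3.87. In the double knockout it was then 9150 to 10229, with Cer1 at 1.92 to 4.89. The sum of 7 fibroblast markers, which embryoid bodies can also express, was 973 and 3243 in C129 replicates 1 and 2, and 613 to 1700.1 in the other day 8 libraries, so the C129 library lowest in the 6 genes above held the most. Sums of 4 primed epiblast markers (6881 to 26724) and 5 trophoblast markers (2941 to 10692) at day 8 overlapped between each Pali mutant and Pali wild type, and the trophoblast sum also between the gene trap and C129. The primed epiblast sum was 17444 to 18700 in the gene trap and 6881 to 12340 in C129. The part of these cell types in the levels of Cer1 and Lefty2 was not tested.

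**Figure D4:**
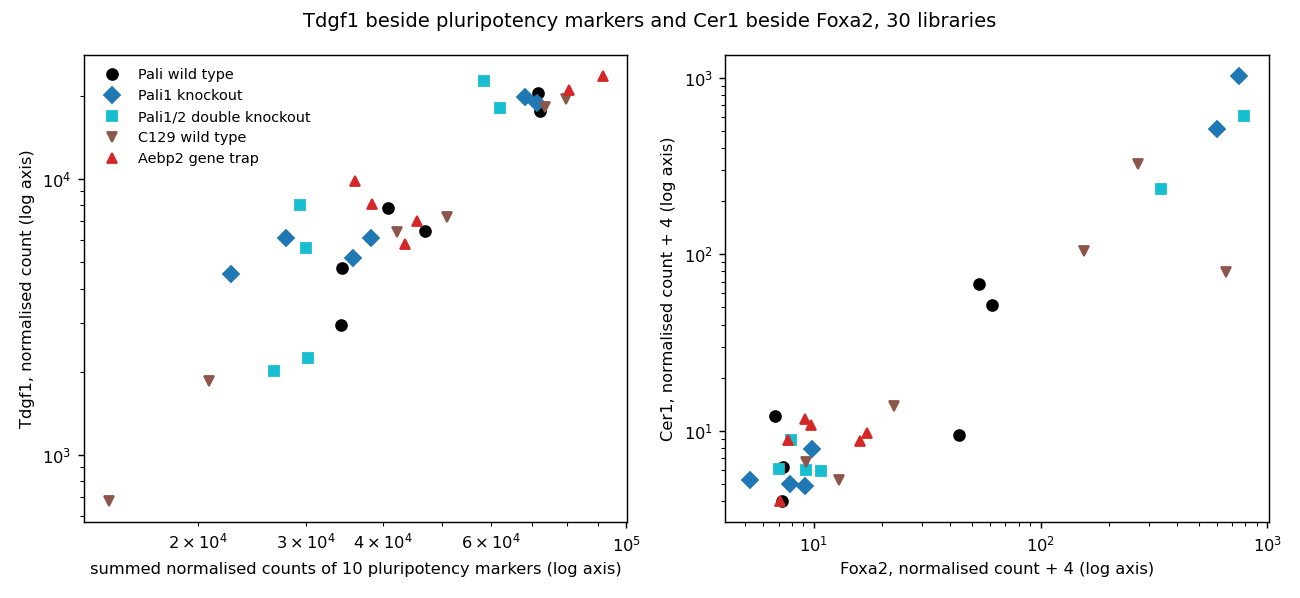
Left, Tdgf1 (vertical axis, normalised count, log scale) against the summed level of 10 pluripotency markers (horizontal axis, log scale). Right, Cer1 + 4 (vertical axis, log scale) against Foxa2 + 4 (horizontal axis, log scale). Each point is 1 of 30 libraries, with colour and shape both giving the line and the day not marked. Libraries with high Cer1 also held high Foxa2, but of the C129 duplicates at day 8 the one with more Foxa2 held less Cer1. Foxa2 is the gene most like Cer1 among 10143 compared in these same data.

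Over the 15 group means on the log2 scale, which share libraries and the time course, members resembled each other to different degrees (Pearson r as a description). Tdgf1 lay close to Gdf3 (0.924) and Smad7 (0.918), and Acvr2b ran opposite to Smad7 (-0.917). Lefty1 and Lefty2 correlated at 0.737. Cer1 ran from -0.649 to Gdf3 and -0.554 to Smad7, through -0.321 to Nodal and -0.173 to Lefty2, up to 0.589 to Acvr2b. Among 10143 genes with a mean of 50 or more, the 3 most like Cer1 were Foxa2 (0.985), Aplnr (0.964) and Sox17 (0.956). Those most like Tdgf1 were Fgf4 (0.941), Ssbp4 (0.935) and Dppa2 (0.927). For Nodal they were Zfp980, Zfp936 and Rex2 (0.925 to 0.912), for Gdf3 Srpr, Gsta4 and Capn1 (0.980 to 0.965), and for Acvr2b Limd1, Pskh1 and Rab11fip3 (0.979 to 0.977). For Smad7 they were Wdr82, Angptl4 and Dhx16 (0.957 to 0.946). Genes alike to Lefty1 included Pole (0.920) and Ssbp4 (0.893), and genes alike to Lefty2 included Dnah10 (0.883) and Nid2 (0.878).

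Promoters of 4 of the 8 genes (Nodal, Tdgf1, Acvr2b and Cer1) were matched in RefSeq (GRCm38.p6). The 250 bases before the RefSeq start are shown, with motif matches in capitals. They are given for the member that fell most, the one that rose by day 4 in every line and the one near the floor at day 0. For Acvr2b this start lies inside the gene interval given above, which begins at 119402118, so the window reaches into that interval.
Tdgf1, chr9:110946159-110946408, minus strand: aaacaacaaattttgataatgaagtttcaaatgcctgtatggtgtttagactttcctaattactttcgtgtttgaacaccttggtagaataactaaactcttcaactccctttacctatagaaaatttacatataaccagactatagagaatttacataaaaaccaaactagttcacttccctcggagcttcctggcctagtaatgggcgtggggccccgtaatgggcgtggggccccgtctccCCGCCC
Acvr2b, chr9:119401928-119402177, plus strand: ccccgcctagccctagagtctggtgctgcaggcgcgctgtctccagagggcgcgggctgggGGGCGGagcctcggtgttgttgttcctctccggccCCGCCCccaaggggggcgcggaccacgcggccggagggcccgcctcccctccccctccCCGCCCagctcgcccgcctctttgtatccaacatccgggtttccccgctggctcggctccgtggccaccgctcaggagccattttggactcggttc
Cer1, chr4:82885152-82885401, minus strand: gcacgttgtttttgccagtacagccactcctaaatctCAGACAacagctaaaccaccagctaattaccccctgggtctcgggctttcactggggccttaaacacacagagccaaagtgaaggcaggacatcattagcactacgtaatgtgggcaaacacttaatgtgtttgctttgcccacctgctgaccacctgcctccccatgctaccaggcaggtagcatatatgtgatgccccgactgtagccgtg
The capitals mark the GC box GGGCGG or its reverse CCGCCC in Tdgf1 (position -6) and Acvr2b (-189, -154 and -96), and the Smad element CAGACA in Cer1 (-213). Of 32851 promoter windows of 300 bases, 35.7% hold a GC box and 21.0% hold CAGACA on either strand. The Foxh1 core AATNCACA (3.60% of windows), the octamer ATGCAAAT (1.74%) and TATAAA (13.6%) were searched on both strands and not found in the windows of the 4 genes. The 300-base windows held 27 CpG in Acvr2b, 7 in Tdgf1 and 6 in Cer1, where the quartiles over all such windows were 3, 7 and 20. A match of letters is a description of the window.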

How the data were processed

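RNA-seq was measured in 30 libraries of 5 lines at 3 times, 2 libraries in each of 15 groups. Per the labels' protocols, total RNA libraries were strand-marked and depleted of ribosomal RNA. The deposited table holds normalised counts per gene (a signal with no depth unit, made by the authors). Tools listed without roles in the submitters' processing notes are DESeq2, HISAT2 2.0.5 and kallisto 0.43.1, with mm10 as the build. The annotation was not stated in the labels or the table. Whole reads could not be recovered from these values, so a count test was not used. Column totals of 15470082 to 18336791 after the authors' scaling are similar, so the depth of each library is unknown and precision is read from the spread of the duplicates.

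Values were analysed with limma 3.58.1 (trend and robust moderation) in R 4.3.3, as log2(value + 4), for 15712 of 20563 genes with at least 10 in at least 2 libraries. The fit had 15 group means and 15 residual degrees of freedom, and p-values were adjusted within each of 42 contrasts over all genes tested, with a threshold of 0.05. They measure the spread between cultures. The 2 Pali mutants share their wild type libraries. Alternatives were another pseudocount, filter, scaling (TMM or upper quartile), set of libraries, replicate block, moderation, the Lefty genes summed, and each library left out. The scripts were tested on simulated data. Members and lists were chosen with earlier results of these data known. All 8 members are described. For each, the 3 most alike genes are named (for Lefty1 and Lefty2, 1 of the 3 is not reported here), and of the pathway list at most 4 called genes per kind of comparison and direction, by size of change, other values of these genes being given beside them. The 2 libraries whose descriptions go against their titles were left out in an alternative added after seeing the data. Sequences of Smad7 were not used here.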

Additional observations from a re-analysis of the deposited data

Results flagged for a closer look

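The courses of C129 and Pali wild type differed in 7 of the 8 genes by a test of the difference itself (limma, Benjamini-Hochberg adjusted p). From day 4 to day 8, the change in C129 less that in Pali wild type was -2.74 for Nodal, -2.50 for Gdf3, -3.52 for Tdgf1, 0.91 for Acvr2b, -3.97 for Lefty1, -4.45 for Lefty2 and -1.97 for Smad7 (adjusted p from 2.47e-05 to 0.00168), beside 17.4% of all genes called. From day 0 to day 8 it was -2.31 for Nodal, -1.76 for Gdf3, -2.65 for Tdgf1, 1.15 for Acvr2b, -2.66 for Lefty1, -2.82 for Lefty2 and -1.39 for Smad7 (adjusted p from 3.04e-04 to 0.0114), beside 14.2%. The whole-course call of Lefty1 was lost without Pali wild type day 0 replicate 1 (-2.18, adjusted p = 0.0580) or C129 day 8 replicate 2 (-2.21, adjusted p = 0.0669), and in a fit of these lines alone (adjusted p = 0.0507), where that of Gdf3 was lost too (adjusted p = 0.0879).

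The course of the gene trap differed from that of C129 in the opposite direction. From day 4 to day 8 the difference was 2.15 for Nodal, 2.07 for Gdf3, 2.11 for Tdgf1, -0.80 for Acvr2b, 2.30 for Lefty1, 2.64 for Lefty2 and 1.06 for Smad7 (adjusted p from 7.10e-04 to 0.0269). From day 0 to day 8 it was 1.64 for Nodal, 1.81 for Gdf3, 2.26 for Tdgf1, -0.83 for Acvr2b, 2.18 for Lefty1, 1.63 for Lefty2 and -4.28 for Cer1 (adjusted p from 0.00306 to 0.0362). The whole-course call of Lefty2 was lost without C129 day 8 replicate 2 (1.07, adjusted p = 0.200), any 1 day 0 library of C129, gene trap day 0 replicate 1 or either gene trap library of day 8. The calls of Lefty1 were lost without C129 day 8 replicate 2 (1.85 and 1.73, adjusted p = 0.136 and 0.149) and without most other libraries they rest on (adjusted p from 0.0510 to 0.112). That of Cer1 was lost without C129 day 8 replicate 1 (-3.27, adjusted p = 0.0577) or gene trap day 0 replicate 1 (-3.56, adjusted p = 0.0601). In a fit of these lines alone the calls of Gdf3 were lost over both spans (adjusted p = 0.0747 and 0.104), as were that of Tdgf1 from day 4 to day 8 (adjusted p = 0.0521) and the whole-course calls of Lefty2 and Cer1 (adjusted p = 0.0709 and 0.1003). Both sets of differences use the same C129 libraries, so their opposite signs are not independent.

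The course of the Pali1 knockout differed from that of Pali wild type for Lefty2 from day 0 to day 8 (-2.04, adjusted p = 0.0255) and for Smad7 from day 4 to day 8 (-0.98, adjusted p = 0.0498). With 2 libraries in a group, no library was tested for standing apart from its group.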

How the results depend on the processing

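Of 132 called results on the 8 genes, 83 were called in the same direction under every alternative and 104 under every alternative that kept all libraries. Of the others 49 lost the call at least once, and 0 reversed. Of 49 uncalled values followed, 5 were called in some alternative and 1 reversed (Lefty1, gene trap against C129 at day 0, -0.30, and 0.32 on the sum of the Lefty genes). Calls in the double knockout against wild type were 2, and 1 with a pseudocount of 1, no filter, a mean of 50, only the lines compared, the Lefty genes summed or without the 2 libraries whose descriptions go against their titles. Calls between the courses of the Pali1 knockout and wild type were 2, and 1 with a pseudocount of 1, no filter, plain moderation or the Lefty genes summed, and 4 with a pseudocount of 16. Calls between the mutants of the Pali line were 2, and 1 with plain moderation, the Lefty genes summed or without those 2 libraries. Calls between the courses of the gene trap and C129 were 14, and 9 in a fit of these lines alone. Leaving out each library in turn gave 1 to 4 for the Pali1 knockout against wild type, 0 to 1 for the double knockout, 0 to 2 between these mutants and 0 to 3 for the Pali1 knockout's courses. Across the genes tested, same-numbered libraries showed little common deviation (correlations of -0.078 to 0.109 over 105 pairs of groups, 1 over 0.1). Such correlations cannot exclude a pairing that acts on single genes. Replicate 2 was the higher in 12 of 15 groups for Smad7 and in 5 to 9 of 15 for the other members. Lefty1 was higher in replicate 2 in every Pali line at day 0 and day 4. With the replicate block nested in line, the double knockout against wild type gave 1 call. TMM or upper-quartile scaling moved the median of all genes by at most 0.05 and 0.07. The depth of each library is unknown, and Cer1 is under 10 in 21 of 30 libraries.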
